A study of Mus musculus with 28 samples.

Results

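C2C12 is a mouse muscle line whose myoblasts fuse into myotubes in culture, and EO771 is a mouse breast cancer line. The libraries described here are 8 of the 28 RNA-seq libraries of a study in which EO771 cells were grown directly on host cells. The C2C12 with EO771 group holds 4 libraries of wild-type C2C12 myotubes that had been co-cultured with wild-type EO771 cells, and the C2C12 alone group holds 4 libraries of wild-type C2C12 myotubes with no partner. MLg, a mouse lung fibroblast line sequenced in 4 libraries with EO771 and 4 alone, is used only for comparison, and EO771 alone and EO771 with C2C12 (4 libraries each) are used to read how much tumour cell RNA the C2C12 libraries hold. The labels give no co-culture time and no cell ratio, do not say how the lines were separated before RNA extraction, and do not say whether the replicates were separate cultures, so a p-value here covers the variation among these libraries only, and that may be technical. Library titles carry an R number, whose meaning is not stated; libraries are named here by R number and running number. Values of single libraries are given in the order R3-1, R5-1, R5-2 and R6-1 for C2C12 with EO771, and R2-1, R3-1, R3-2 and R5-1 for C2C12 alone.

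Interferons are secreted proteins that cells release on sensing viral or misplaced nucleic acid. Type I interferon binds the receptor pair IFNAR1 and IFNAR2, the kinases JAK1 and TYK2 phosphorylate STAT proteins, and these join IRF9 into a complex that binds the interferon-stimulated response element in promoters. Interferon-gamma acts through its own receptor, and the guanylate-binding proteins and immunity-related GTPases are among its best known targets. Muscle fibres respond to interferon in inflammatory myopathies, where the same target genes are a recognised feature. Myotubes are also a standard model of muscle wasting, read through the ubiquitin ligases Fbxo32 and Trim63 and the sarcomere genes.

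The core of the response element was searched as a pair of GAAA half-sites with any 2 bases between them, on both strands, in RefSeq promoters (build GRCm38.p6). Windows ran from 250 bases before to 50 bases after the gene start. These 5 genes rose in C2C12 with EO771 and are shown because each holds the core; the 200 bases before the start are printed on the gene's strand, with each match in capitals, where matches that overlap form 1 run. Isg15 lies at chr4:156200819-156201018 on the minus strand, Ifit1 at chr19:34640689-34640888, Ifit3 at chr19:34583329-34583528, Gbp3 at chr3:142559844-142560043 and Irgm2 at chr11:58214777-58214976, the last 4 on the plus strand. Gbp3 has another RefSeq start, whose window holds no match.
Isg15: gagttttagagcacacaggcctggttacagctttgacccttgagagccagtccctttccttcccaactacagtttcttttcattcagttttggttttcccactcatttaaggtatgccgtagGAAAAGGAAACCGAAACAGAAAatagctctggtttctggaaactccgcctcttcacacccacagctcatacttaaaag
Ifit1: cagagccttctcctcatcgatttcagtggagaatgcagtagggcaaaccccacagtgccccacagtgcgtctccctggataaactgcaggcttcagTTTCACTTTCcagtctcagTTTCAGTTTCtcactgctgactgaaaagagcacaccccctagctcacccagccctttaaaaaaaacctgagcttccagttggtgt
Ifit3: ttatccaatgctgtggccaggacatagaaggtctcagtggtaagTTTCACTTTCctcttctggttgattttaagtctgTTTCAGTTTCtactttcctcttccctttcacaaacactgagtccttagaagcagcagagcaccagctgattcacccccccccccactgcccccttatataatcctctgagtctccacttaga
Gbp3: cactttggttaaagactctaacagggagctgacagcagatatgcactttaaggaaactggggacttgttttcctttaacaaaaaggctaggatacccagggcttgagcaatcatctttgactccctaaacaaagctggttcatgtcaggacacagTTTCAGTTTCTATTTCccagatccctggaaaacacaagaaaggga
Irgm2: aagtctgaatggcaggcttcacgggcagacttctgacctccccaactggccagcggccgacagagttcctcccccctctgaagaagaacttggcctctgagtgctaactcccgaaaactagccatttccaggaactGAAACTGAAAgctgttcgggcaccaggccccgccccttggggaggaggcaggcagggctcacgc
Isg15 held 3 matches, which began 78, 72 and 66 bases before the start. Ifit1 and Ifit3 held 2 each, which began 104 and 85 bases before the start in Ifit1 and 156 and 122 bases before it in Ifit3. Gbp3 held 2 overlapping matches, beginning 45 and 39 bases before the start, and Irgm2 held 1, beginning 64 bases before it.

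Each C2C12 with EO771 library held some EO771 RNA. Over 79 genes expressed in EO771 and nearly silent in C2C12 alone, the median level relative to EO771 with C2C12 was 3.24%, 4.92%, 3.65% and 4.86% in the co-cultured libraries (4.17% ± 0.854, SD, n = 4) and 0% in every library of C2C12 alone. A gene high in EO771 can therefore appear to rise in C2C12 with no change in the myotubes. Rises are described below only for genes whose mean counts per 1e6 counts (CPM) in EO771 alone was at most 4 times that in C2C12 alone, or whose increase was at least 3 times what the highest share, 4.92% of the higher EO771 level (alone or with C2C12), could bring, which is called the carry-over limit. This limit rests on a median over genes and is not a ceiling. Among the 79 genes the mean level in C2C12 with EO771 ranged from 1.58% to 9.68% of that in EO771 with C2C12. In these bulk libraries fewer cells of a type and less RNA per cell cannot be told apart.

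Total counts were 36.5 M to 63.0 M (M, 1e6 reads) in C2C12 with EO771 and 54.8 M to 96.5 M in C2C12 alone. The R3 libraries stood apart from the rest in both groups. The first principal component, 51.5% of the variance over 10479 genes, placed the R3 library with EO771 at -19.6 and the R3 libraries of C2C12 alone at -38.3 and -33.4, while every other library lay at -0.906 or above. The 12 myotube markers summed to 633, 2846, 2394 and 1959 CPM with EO771, against 3476, 335, 563 and 4417 CPM alone, so the 3 R3 libraries were low whether or not EO771 was present. Results that rest on these libraries are given with and without them.

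Of 16625 genes tested with edgeR's quasi-likelihood test, 429 (2.58%) were higher and 16 (0.0962%) lower in C2C12 with EO771 at an adjusted p under 0.05, 2.68% in all, and the median log2 fold change over all genes tested was -0.0024. Of the 429, 116 were within 4 times of C2C12 alone in EO771 (0.781% of the 14854 such genes tested) and 313 were over it (17.7% of 1771). A further 21 of those 313 were far above carry-over, which leaves 137 rises to describe, 0.824% of the genes tested, and 292 that carry-over could reach. In all 137, every co-cultured library was above every library alone, which held for 6.54% of all genes tested. The log2 fold change was above 0 within R3 and within R5 for all 137, 63 were over 4-fold and 110 over 2-fold. Blocking on the R number, which called 2.24% of all genes higher and 0.0662% lower, kept 101 of the 137. Without the R3 libraries, where 1.83% of all genes were higher, 83 of the 137 were called, and after EO771 counts were subtracted 99 were. The members of 4 interferon lists made up 47 of the 137, and 86 were in no list. Of the 16625 genes tested, these lists held 32 antiviral effectors, 16 interferon ligand, receptor and factor genes, 13 immunity GTPases and 18 antigen presentation genes. The share of all genes tested that lies in no list was not counted, so nothing is read from the 86.

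**Figure D1:**
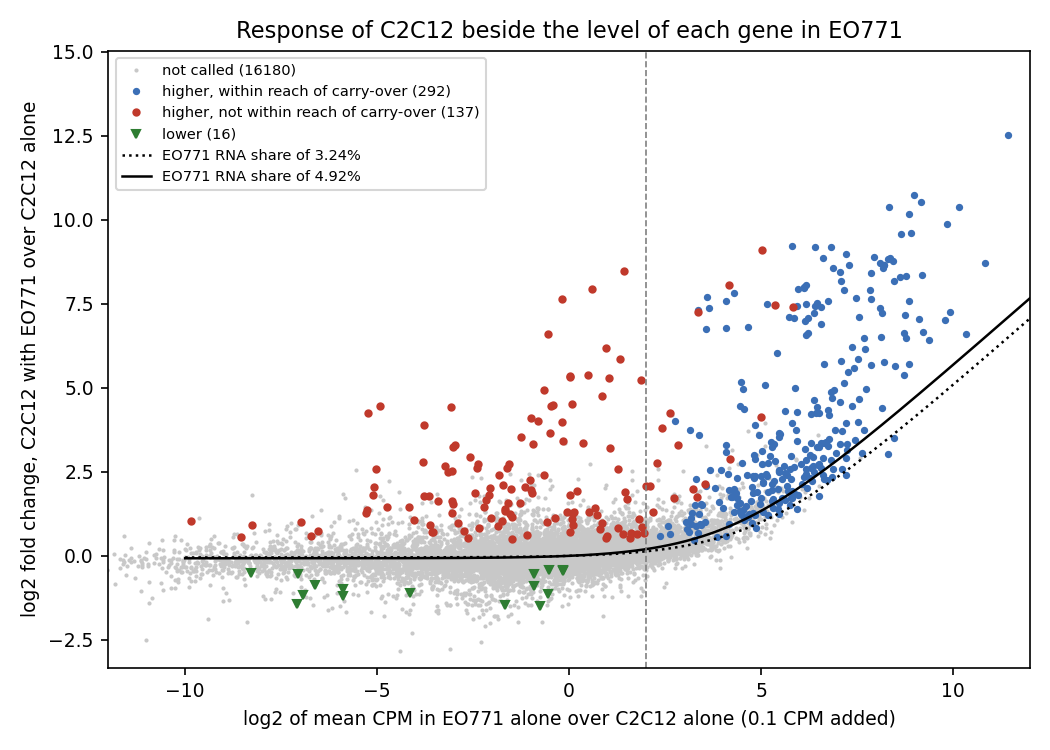
Log2 fold change of C2C12 with EO771 over C2C12 alone (vertical) against the log2 ratio of EO771 alone to C2C12 alone (horizontal) for 16625 genes. Lines show the change that EO771 RNA shares of 3.24% and 4.92% alone would give, and the dashed line marks 4 times; the 137 described rises in red lie to the left of it or far above the lines, and most of the 292 rises in blue follow them.

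Irf7, Stat2 and Irf9, transcription factors of the interferon response, were higher in C2C12 with EO771. Irf7, a factor that amplifies interferon production, was 40.6, 40.4, 50.6 and 37.0 CPM with EO771, against 2.66, 2.62, 2.15 and 1.93 CPM alone. Its groups were far apart, with a log2 fold change of 4.11 ± 0.17 (SE; adjusted p = 6.03e-06). Stat2, which carries the type I signal, was 204, 146, 233 and 178 CPM with EO771, against 57.7, 42.0, 49.9 and 51.2 CPM alone (log2 fold change 1.88 ± 0.16, adjusted p = 0.000197). Irf9, the DNA-binding partner of STAT2, was 62.5, 60.3, 82.1 and 70.3 CPM with EO771, against 21.6, 16.9, 19.4 and 17.6 CPM alone (1.81 ± 0.13, adjusted p = 7.85e-05). In the list of interferon ligand, receptors and factors 4 of 16 tested were higher, against 2.58% of all genes, and 0 were lower, with a median log2 fold change of 0.16. Irf7, Stat2 and Irf9 kept the call in every alternative run.

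The receptor chains, and Irf1 and Ifnb1 beside them, are named for their roles after their values were seen. Ifnar1 was 74.4, 79.9, 87.0 and 86.2 CPM with EO771, against 84.3, 82.1, 83.7 and 87.0 CPM alone, and Ifnar2 was 19.2, 23.1, 17.5 and 19.0 CPM with EO771, against 17.8, 18.2, 15.8 and 17.0 CPM alone. Both receptor genes overlapped between the groups and neither was called (adjusted p = 0.785 for Ifnar1 and 0.774 for Ifnar2). Irf1, a factor best known for its induction by interferon-gamma, was 51.4, 51.8, 43.5 and 42.8 CPM with EO771, against 54.6, 40.5, 44.9 and 40.2 CPM alone (adjusted p = 0.977). Ifnb1, which encodes interferon-beta, had 3 reads in all 4 co-cultured libraries together and 0 in the libraries alone, too few to test.

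Antiviral effectors rose in nearly every member. Of 32 tested, 29 were higher and 0 lower, against 2.58% of all genes higher, and their median log2 fold change was 3.86. The list summed to 2122, 1910, 2371 and 2097 CPM with EO771, against 587, 585, 540 and 597 CPM alone. All 32 had a log2 fold change above 0 within R3 and within R5. The members not called were Isg20, Cmpk2 and Tlr3, and 2 called members, Oas1g and Oasl1, were within reach of carry-over. The count was 28 with the R number as a block, 26 without the R3 libraries and 26 after EO771 counts were subtracted.

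Ifit1 and Ifit3, of the interferon-induced IFIT family, whose promoters are shown above, both rose. Ifit1 was 121, 108, 183 and 147 CPM with EO771, against 1.66, 2.65, 2.40 and 0.493 CPM alone (log2 fold change 6.19 ± 0.49, adjusted p = 0.000157). Ifit3 was 292, 192, 272 and 228 CPM with EO771, against 13.0, 15.1, 14.0 and 6.93 CPM alone, a 19.2-fold difference (adjusted p = 6.21e-05). Its neighbour Ifit3b rose 21.9-fold. Ifit3 and Ifit3b are near-identical copies, so their reads may have been split between them, and the same holds for Oas1a and Oas1g and for Tgtp1 and Tgtp2.

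The nearly silent members gave the largest folds. Ifi44, an interferon-induced protein of little known function, was 30.8, 24.8, 53.9 and 54.8 CPM with EO771, against 0.292, 0.166, 0.140 and 0.058 CPM alone (log2 fold change 7.93 ± 0.46, adjusted p = 3.27e-05). Mx2, of a family of dynamin-like antiviral GTPases, was 25.6, 21.8, 37.1 and 26.3 CPM with EO771, against 0.383, 0.352, 0.265 and 0.087 CPM alone (6.60 ± 0.40, adjusted p = 3.27e-05). The annotation used here marks Mx2 as a polymorphic pseudogene. Its relative Mx1 had 900 reads in the co-cultured libraries and 3 in the libraries alone, a ratio of 468 per unit depth with a 95% exact counting interval of 159.5 to 2272. Oas2, which makes the 2'-5' oligoadenylates that switch on RNase L, was 8.37, 3.76, 11.8 and 15.2 CPM with EO771, against 0.0729, 0.0311, 0.0838 and 0 CPM alone (7.63 ± 0.69, adjusted p = 0.000346). In each of these genes the lowest co-cultured library was far above the highest library alone.

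Oasl2, an oligoadenylate synthetase-like protein, had the smallest adjusted p of the list. It was 95.8, 96.5, 138 and 119 CPM with EO771, against 5.38, 4.54, 5.00 and 4.25 CPM alone (log2 fold change 4.50 ± 0.16, adjusted p = 2.21e-06). Xaf1, an interferon-induced promoter of apoptosis, was 57.4, 58.0, 85.2 and 77.1 CPM with EO771, against 9.68, 7.28, 7.26 and 10.8 CPM alone (2.94 ± 0.18, adjusted p = 3.27e-05).

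ISG15 is a ubiquitin-like protein, induced by interferon, that enzymes attach to other proteins. Isg15, Uba7, Ube2l6, Herc6 and Trim25 were chosen after their values were seen, from no fixed list of that pathway. Isg15 itself was 129, 72.4, 78.5 and 65.0 CPM with EO771, against 6.13, 12.1, 11.3 and 2.22 CPM alone (log2 fold change 3.37 ± 0.50, adjusted p = 0.0053). Its activating enzyme Uba7 rose 3.08-fold, the conjugating enzyme Ube2l6 1.77-fold, and the ligase Herc6 4.19-fold. Trim25, an ISG15 and ubiquitin ligase, rose 2.15-fold. Ube2l6 was not called without the R3 libraries (adjusted p = 0.0749), nor without R3-2 alone or R5-2 with EO771 (adjusted p up to 0.0548). Usp18, which removes ISG15 and damps the type I receptor, was 10.7, 9.21, 12.0 and 9.16 CPM with EO771, against 0.146, 0.342, 0.154 and 0 CPM alone (5.86 ± 0.68, adjusted p = 0.00127).

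**Figure D2:**
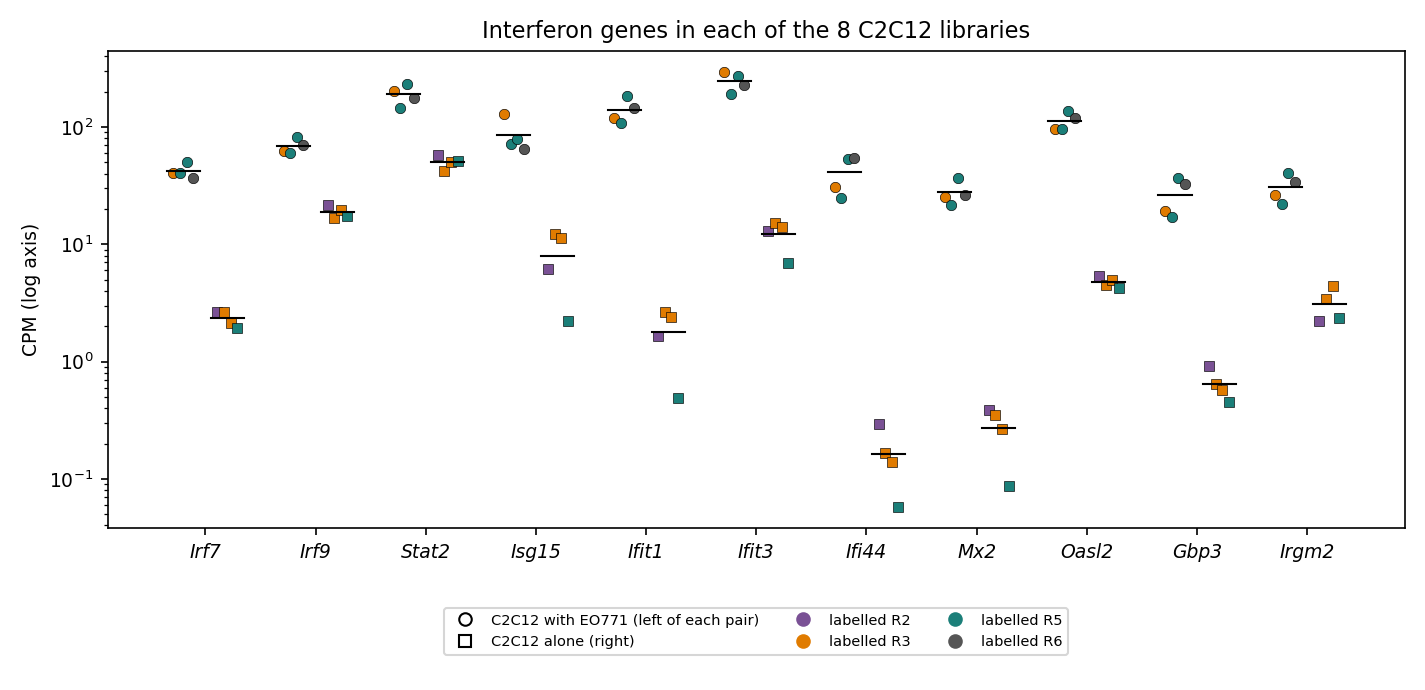
CPM on a log axis of 11 interferon genes in each of the 8 libraries, C2C12 with EO771 as circles on the left of each pair and C2C12 alone as squares on the right, coloured by R number, with bars at the group means. Every circle lies above every square of its gene, and in Isg15 and Ifit3 the R3 library is the highest with EO771 and the R3 libraries are the highest alone.

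GTPases of cell-autonomous immunity, which attack the membranes around intracellular pathogens, were called higher in all 13 members tested, against 2.58% of all genes. Their median log2 fold change was 3.24. The list summed to 275, 202, 353 and 298 CPM with EO771, against 62.7, 73.3, 71.9 and 45.9 CPM alone, and to 17.0 CPM on average in EO771 alone. All 13 rises were of the kind described. With the R number as a block 12 were called, against 2.24% of all genes, and without the R3 libraries 11, against 1.83%. Gbp6 was too low to test.
Gbp3, a guanylate-binding protein, was 19.2, 17.2, 36.8 and 33.0 CPM with EO771, against 0.912, 0.643, 0.572 and 0.449 CPM alone (log2 fold change 5.31 ± 0.34, adjusted p = 5.33e-05). Gbp7 rose 22.2-fold (adjusted p = 0.000834) and Gbp2 rose 3.45-fold (adjusted p = 0.000507). Irgm2, a regulatory member of the immunity-related GTPases, was 26.1, 22.0, 40.8 and 34.3 CPM with EO771, against 2.22, 3.40, 4.45 and 2.36 CPM alone (3.24 ± 0.29, adjusted p = 0.000297). Iigp1, an effector member, rose 21.6-fold (adjusted p = 0.00086). The groups did not overlap for any of these 5, and Gbp paralogs may share reads.

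The response element core was present in the promoter windows of 14 of the 23 antiviral effectors (60.9%) and 9 of the 10 immunity GTPases (90%) that have a RefSeq entry. Of the 137 described rises 96 have an entry, and 41 of these (42.7%) held the core, against 423 of 11324 genes tested (3.74%). Of the 292 rises within reach of carry-over 206 have an entry, and 9 of these (4.37%) held it. None of the 12 falls with an entry held it. Several strong risers with an entry had no match in this window, among them Irf7, Irf9, Oasl2, Ifi44 and Xaf1; a match is a description of the sequence and not evidence of binding.

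Antigen presentation rose in part; its members are named after their values were seen. Of 18 members tested 5 were higher, against 2.58% of all genes, and 0 lower (median log2 fold change 0.51). Without the R3 libraries 3 were higher, against 1.83% of all genes, and after EO771 counts were subtracted 1 was. Of the 5, 3, Tap1, Psmb9 and Tapbp, were of the kind described. Tap1, a subunit of the peptide transporter, was 14.2, 8.36, 11.1 and 8.55 CPM with EO771, against 1.77, 4.03, 3.46 and 1.61 CPM alone (log2 fold change 1.89 ± 0.35, adjusted p = 0.0195). Leaving out the library alone R2-1, or the co-cultured R5-2 or R6-1, took the call of Tap1 away (adjusted p up to 0.0754), as did the subtraction of EO771 counts (adjusted p = 0.0647). Psmb9, an immunoproteasome subunit, was 1.43, 0.274, 1.38 and 0.406 CPM with EO771, against 0.0729, 0.0829, 0.0698 and 0.116 CPM alone (adjusted p = 0.018, and 0.198 without the R3 libraries). It was also not called when R2-1, R3-1 or R3-2 alone, or R5-2 with EO771, was left out (adjusted p up to 0.0676). B2m and H2-K1, the light chain and a heavy chain of MHC class I, were not called. B2m was 621, 725, 577 and 658 CPM with EO771, against 598, 545, 513 and 458 CPM alone (adjusted p = 0.588). H2-K1 was 226, 227, 152 and 169 CPM with EO771, against 144, 143, 142 and 126 CPM alone (adjusted p = 0.308).

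Among secreted signals, 2 of 14 chemokines tested were higher, against 2.58% of all genes: Cxcl10 and Cxcl9, both ligands of CXCR3 that draw activated T cells. Cxcl10 was 3.70, 5.90, 9.40 and 6.32 CPM with EO771, against 0.0365, 0.0622, 0 and 0.029 CPM alone (log2 fold change 7.41 ± 0.58, adjusted p = 0.000157). EO771 alone held 7.39 CPM of Cxcl10, and the increase in C2C12 was 12.5 times what carry-over could bring. Cxcl9 was 0.322, 1.10, 2.24 and 1.40 CPM with EO771, against 0, 0.0207, 0.0279 and 0.058 CPM alone (5.38 ± 0.76, adjusted p = 0.00372), and EO771 alone held 0.077 CPM.

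No member of the 15 cytokines tested was called with edgeR, 5 had an unadjusted p under 0.05 and DESeq2 called 1. Il6, a cytokine that working muscle also releases, was 5.38, 5.62, 3.32 and 5.98 CPM with EO771, against 0.438, 1.24, 2.23 and 0.870 CPM alone, with no overlap (log2 fold change 2.01 ± 0.45, adjusted p = 0.0501). Blocking on the R number brought it past the threshold (adjusted p = 0.0201), as did leaving out the R3 libraries (adjusted p = 0.0111) or R3-2 alone (adjusted p = 0.0141). Lif was 5.75, 6.33, 7.26 and 6.88 CPM with EO771, against 4.74, 4.26, 5.25 and 7.77 CPM alone (adjusted p = 0.803).

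A pair of related immune receptor genes, Lilrb4a and Lilr4b, had 0 reads in all 4 libraries of C2C12 alone and 108 and 212 reads in the co-cultured libraries. Against a floor of 3 counts over the group, Lilrb4a was at least 56.1-fold and Lilr4b at least 110.2-fold higher with EO771. EO771 alone held 1.70 CPM of Lilrb4a and 3.14 CPM of Lilr4b, and the increases were 4.19 and 3.28 times the carry-over limit, not far above the bound of 3. That limit uses a share of 4.92%, and single genes of the gauge reached 9.68%. After EO771 counts were subtracted Lilr4b was not tested, and edgeR still called Lilrb4a (adjusted p = 0.0121). These receptors are known from myeloid cells, and the 8 macrophage markers summed to 5.63, 6.58, 4.21 and 5.35 CPM with EO771, against 3.99, 3.86, 4.01 and 5.12 CPM alone, and 0 of the 3 tested were called. Ptprc, the pan-leukocyte gene CD45, and Adgre1, the macrophage gene F4/80, both picked from these 8 markers, were at 0 CPM in all 4 co-cultured libraries. Of the 3 markers tested 2 had a log2 fold change above 0, and the 8 summed to 13.3 CPM in EO771 alone. The source of the Lilrb4a and Lilr4b reads was not tested.

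Serpina3n, Slc10a6, Timp1, Ifi202b and Ifi205 also rose outside the 4 interferon lists, and were chosen after their values were seen. Serpina3n, an acute-phase protease inhibitor known to rise in wasting muscle, was 15.2, 12.8, 11.6 and 23.4 CPM with EO771, against 3.59, 5.67, 4.87 and 3.03 CPM alone (log2 fold change 1.81 ± 0.29, adjusted p = 0.00742). EO771 alone held 0.0272 CPM of Serpina3n, and the call held in every alternative run. Slc10a6, a sulphated steroid transporter, was 1.79, 2.33, 2.22 and 1.56 CPM with EO771, against 0.474, 0.394, 0.461 and 0.754 CPM alone (1.88 ± 0.28, adjusted p = 0.00508, and 0.0701 without the R3 libraries). Timp1, an inhibitor of matrix metalloproteinases, was 317, 447, 299 and 391 CPM with EO771, against 207, 224, 205 and 218 CPM alone (0.71 ± 0.14, adjusted p = 0.0216). Timp1 was not called under the block (adjusted p = 0.173), without the R3 libraries (adjusted p = 0.107), or without any 1 of R2-1, R3-2 and R5-1 alone and R6-1 with EO771 (adjusted p up to 0.111). Ifi202b and Ifi205, of the HIN-200 family of nucleic acid sensors, rose 2.06-fold and 11.7-fold.

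Of the mitosis and DNA replication lists 1 gene of 28 each (3.57%) was called higher, Cenpa and Mcm10, neither of the kind described. The share was 2.58% over all genes and 17.7% over genes more than 4 times higher in EO771. Only 0 of the mitosis and 2 of the DNA replication genes were within 4 times. The 28 mitosis genes summed to 232, 563, 623 and 694 CPM with EO771, against 118, 206, 204 and 352 CPM alone, and to 4896 CPM in EO771 alone. All 28 log2 fold changes were above 0, with a median of 1.36, and the increases were 0.674 to 2.65 times the carry-over limit. With edgeR 26 had an unadjusted p under 0.05 and DESeq2 called 21, where DESeq2 called 4.01% of all genes higher. Mki67, a marker of cycling cells, was 15.4, 41.3, 54.3 and 54.7 CPM with EO771, against 8.39, 26.1, 22.7 and 31.6 CPM alone (adjusted p = 0.571), with a log2 difference of -0.67 within R3 and 0.59 within R5. The 28 DNA replication genes had a median log2 fold change of 0.36, and DESeq2 called 5.
Of the NF-kB and acute-phase list 5 of 22 were higher, against 2.58% of all genes and 17.7% of the genes over 4 times higher in EO771, and all but Saa3, an acute-phase protein (adjusted p = 0.042, and 0.337 under the block), were within reach of carry-over. Nos2, the inducible nitric oxide synthase, was 1.68, 5.57, 5.38 and 8.46 CPM with EO771, against 0.255, 0.0415, 0.0279 and 0.696 CPM alone. Nos2 reached 71.6 CPM in EO771 with C2C12 and its increase was 1.42 times the carry-over limit, so the myotubes' part in it cannot be told apart from EO771 RNA. The epithelial and carcinoma markers summed to 6.69, 17.6, 10.8 and 11.9 CPM with EO771, against 3.30, 1.92, 1.77 and 10.0 CPM alone, and 2 of 6 tested were called, Krt8 and Ovol1, neither of them of the kind described.

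Falls were few. Of the 16, which were lower in every co-cultured library than in any library alone (1.34% of all genes tested were), 8 were over 2-fold, 3 were called whichever library was left out (Col14a1, Mt2 and Sh3bp4), 4 with the R number as a block and 6 without the R3 libraries. The fall was present within R3 and within R5 for all 16.
Mt2 and Mt1, the metallothioneins that buffer zinc and copper, fell together. Mt2 was 4.46, 6.03, 4.43 and 6.45 CPM with EO771, against 12.9, 9.40, 10.3 and 12.9 CPM alone (log2 fold change -1.14 ± 0.18, adjusted p = 0.00686). Mt1 was 232, 312, 223 and 200.4 CPM with EO771, against 513, 364, 358 and 498 CPM alone (-0.89 ± 0.17, adjusted p = 0.0214). Both were called under the block and without the R3 libraries, though Mt1 was not called without R2-1 alone, R5-2 with EO771 or R6-1 with EO771 (adjusted p up to 0.0672), nor after EO771 counts were subtracted (adjusted p = 0.0706). They were the only members called lower of 15 tested in the list of metallothioneins and metal transport, whose median log2 fold change was -0.01. EO771 alone held 229 CPM of Mt1 and 7.72 CPM of Mt2.

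Col14a1, a collagen that associates with fibril surfaces, was 15.5, 12.2, 14.5 and 13.3 CPM with EO771, against 57.7, 29.9, 25.5 and 33.0 CPM alone (log2 fold change -1.44 ± 0.23, adjusted p = 0.00867). It was the only collagen called among 19 tested. Sh3bp4, an endocytic adaptor, was 35.9, 37.8, 42.0 and 40.0 CPM with EO771, against 51.6, 52.7, 52.9 and 55.3 CPM alone (-0.50 ± 0.08, adjusted p = 0.0107, and 0.08 under the block and 0.23 without the R3 libraries). Sh3bp4 was also not called after EO771 counts were subtracted (adjusted p = 0.0856) or with all 28 libraries in the fit (adjusted p = 0.0557). Crabp2, a cellular carrier of retinoic acid chosen after its values were seen, was 95.7, 96.6, 65.5 and 78.4 CPM with EO771, against 226, 150, 134 and 141 CPM alone (means 84.1 and 163 CPM, adjusted p = 0.0232). Crabp2 was not called under the block (adjusted p = 0.0858), nor without R3-1 alone, or R5-2 or R6-1 with EO771 (adjusted p up to 0.0783), nor after EO771 counts were subtracted (adjusted p = 0.103).

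Muscle genes did not give 1 answer over the 8 libraries. With edgeR, 0 of 10 myosin heavy chains, 0 of 23 thin and thick filament genes, 0 of 24 Z-disc, M-band and costamere genes, 0 of 18 myogenic factors and fusion genes and 0 of 25 atrophy and autophagy genes were called; at an unadjusted p under 0.05 the counts were 0, 1, 0, 0 and 2, and DESeq2 called 0 in each. The sign differed between R3 and R5. Within R3, all 12 myotube markers were higher with EO771 (median log2 difference 0.64), and within R5 all 12 were lower (median -0.94). Of the 23 filament genes 20 were higher within R3 and 1 within R5, and over all genes tested the medians were 0.05 within R3 and 0.0012 within R5. The R3 comparison rests on 1 library against 2 and the R5 comparison on 2 against 1, and the difference between them was not tested.
Myh3, the embryonic myosin heavy chain, was 144, 435, 462 and 346 CPM with EO771, against 888, 43.1, 117 and 724 CPM alone (adjusted p = 0.927). Without the R3 libraries its log2 fold change was -0.99 (adjusted p = 0.0397). Myh1, a fast adult myosin, was 37.5, 323, 383 and 218 CPM with EO771, against 363, 9.89, 35.4 and 535 CPM alone (adjusted p = 0.999, and 0.51 without the R3 libraries). Acta1, skeletal alpha-actin, was 86.5, 457, 417 and 330 CPM with EO771, against 586, 33.4, 68.7 and 932 CPM alone. Myog, the myogenic factor that starts differentiation, was 15.5, 55.1, 43.1 and 42.2 CPM with EO771, against 66.5, 9.48, 12.2 and 98.4 CPM alone. In each of these genes the groups overlapped, and the R3 libraries were the lowest of both groups.

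Without the 3 R3 libraries, which leaves 3 co-cultured libraries against 2 alone, 36 genes were lower (0.209% of 17241 tested). Of the 36, 10 belonged to 7 muscle lists, which are the muscle lists that held such a gene. The lists of myogenic factors and fusion genes, neuromuscular junction genes, undifferentiated myoblast markers and the myostatin and activin axis held 0. The share of all genes tested that lies in the 7 lists was not counted, so no excess is read from the 10. These 10, listed after their values were seen, were Myl2, Mybpc2, Lmod2, Mb, Ckm, Myoz2, Myom2, Myh3, Casq2 and Trim63. All 10 were lower within R5 and higher within R3, directions that their choice favours, since it used the R5 libraries and none of the 10 was called with R3 present. Myl2, a regulatory myosin light chain, had a log2 change of -2.23 there (adjusted p = 0.00493), and Mb, the oxygen carrier myoglobin, one of -1.33 (adjusted p = 0.00609). Ckm, muscle creatine kinase, was 5.31, 18.5, 14.8 and 13.0 CPM with EO771, against 33.3, 2.48, 5.26 and 33.7 CPM alone, with a log2 change of -1.14 without R3 (adjusted p = 0.021). With all 8 libraries and the R number as a block, 0 genes of the myosin, filament and Z-disc lists were called.
Trim63 was 3.59, 7.65, 8.83 and 7.38 CPM with EO771, against 15.2, 1.18, 1.91 and 18.6 CPM alone, with a log2 change of -1.11 without R3 (adjusted p = 0.0258). Fbxo32, the other atrophy ligase, was 77.5, 90.5, 97.6 and 110 CPM with EO771, against 127, 65.4, 64.7 and 114 CPM alone (adjusted p = 0.984, and 0.585 without the R3 libraries). Mstn, the muscle growth inhibitor myostatin, was at or under 0.0919 CPM in every library, too low to test.

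**Figure D3:**
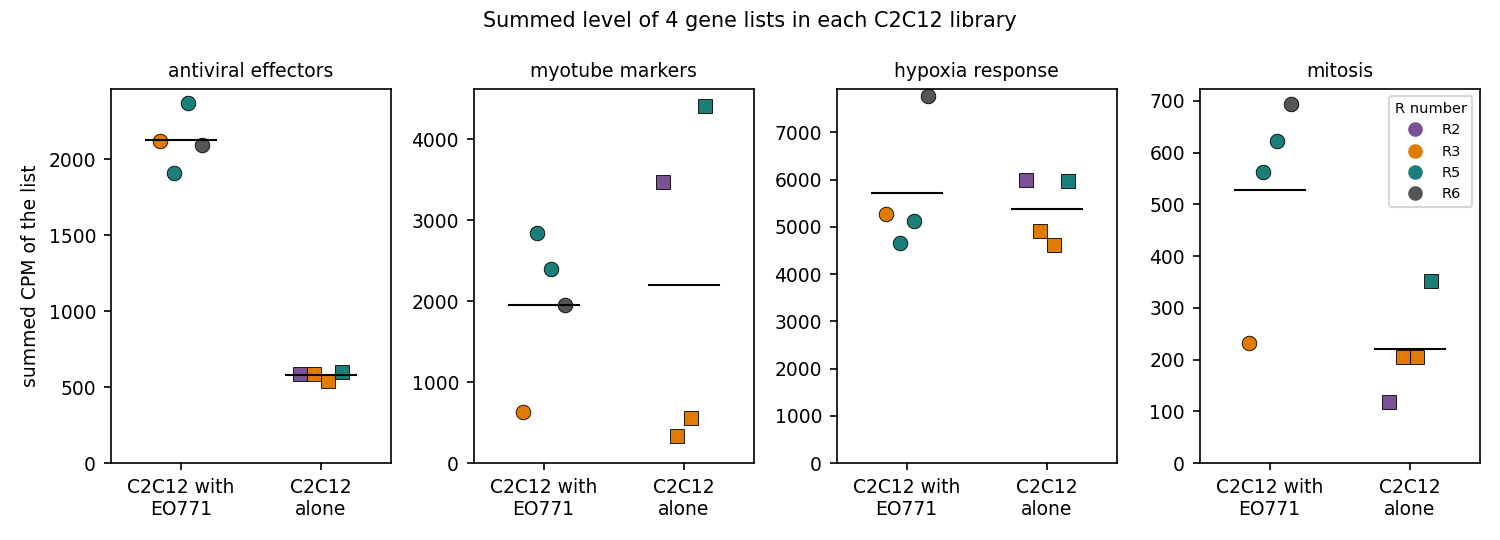
Summed CPM of 4 gene lists in each library, C2C12 with EO771 on the left and C2C12 alone on the right of each panel, coloured by R number, with bars at the group means. The antiviral effectors separate the groups at 1910 to 2371 against 540 to 597 CPM, whereas the myotube markers separate the R3 libraries from the others in both groups.

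Hypoxia genes were read because the study's title names hypoxia in the co-culture. Of 29 tested, 0 were called with edgeR, 0 had an unadjusted p under 0.05 and DESeq2 called 0; the median log2 fold change was 0.07, and 23 were higher within R3 but 3 within R5. The list summed to 5283, 4660, 5135 and 7762 CPM with EO771, against 6002, 4914, 4628 and 5966 CPM alone. Slc2a1, the glucose transporter GLUT1, was 140, 174, 138 and 195 CPM with EO771, against 152, 75.9, 72.9 and 167 CPM alone (adjusted p = 0.65). Vegfa, the vascular growth factor, was 414, 310, 326 and 412 CPM with EO771, against 414, 247, 272 and 380 CPM alone (adjusted p = 0.902). Bnip3, a mitophagy receptor induced by low oxygen, was 64.9, 76.0, 92.7 and 170 CPM with EO771, against 135, 63.7, 47.4 and 137 CPM alone (adjusted p = 0.99). Hif1a, whose protein rather than its RNA is controlled by oxygen, was 193, 136, 177 and 205 CPM with EO771, against 172, 228, 225 and 153 CPM alone (adjusted p = 0.813). The core of the hypoxia response element, ACGTG on both strands, was in 15 of the 22 promoter windows of this list with a RefSeq entry (68.2%) and in 28.2% of those of all genes tested. Of 20 glycolysis genes and 31 oxidative phosphorylation genes 0 were called with edgeR, 2 and 0 had an unadjusted p under 0.05, and DESeq2 called 1 and 0.

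**Figure D4:**
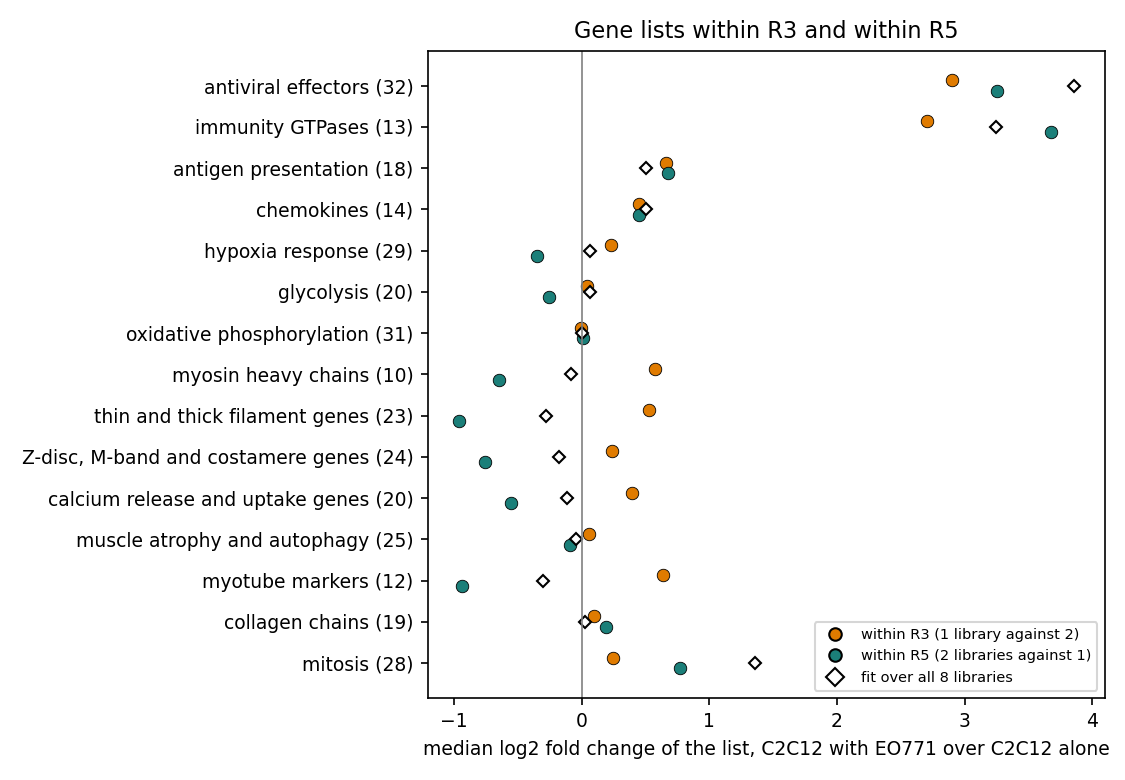
Median log2 fold change of 15 gene lists, C2C12 with EO771 over C2C12 alone, within R3, within R5 and in the fit over all 8 libraries, with the genes tested in brackets; the within-R values have 0.1 CPM added. The antiviral and GTPase lists lie above 0 in all 3, while the myotube markers lie at 0.64 within R3 and -0.94 within R5.

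MLg fibroblasts responded to EO771 with many of the same interferon genes. In MLg with EO771 against MLg alone 1663 genes were higher (9.89%) and 809 lower (4.81%) of 16823 tested; the EO771 RNA in the MLg libraries was not gauged here, and the labels' R numbers only partly overlap between the lines. Of the 137 rises in C2C12, 108 of the 130 tested in MLg were also higher there. Over the whole lists, whether or not a member was among the 137, 31 of the 32 antiviral effectors and all 14 immunity GTPases were higher in MLg. The difference between the responses was tested as an interaction over 16 libraries: 145 genes (0.778% of 18647) had a larger log2 change in C2C12 and 198 (1.06%) a larger one in MLg. Among the 137 rises the difference was called for 27, 25 of them larger in C2C12; the 137 were chosen for being higher in C2C12, which favours that direction, so nothing is read from the split.
Mx1 differed most among the genes named, with a log2 change 6.58 larger in C2C12 (adjusted p = 0.000133). C2C12 alone held only 3 reads of Mx1, so the size of that difference is poorly fixed. In MLg, Mx1 averaged 49.8 CPM with EO771 and 13.3 CPM alone. Ifi44 was 2.36 larger (adjusted p = 0.011), Mx2 2.32 larger (adjusted p = 0.00354), Oasl2 1.32 larger (adjusted p = 0.00207) and Gbp3 2.20 larger (adjusted p = 0.00196). Stat2 was 0.97 larger (adjusted p = 0.0173). These genes were named for their rise in C2C12, which favours that direction. Each had a higher mean CPM in MLg than in C2C12, both with EO771 and alone. Gbp3, for example, averaged 90.8 and 10.6 CPM in MLg, against 26.5 and 0.644 CPM in C2C12. Stat2 averaged 318 and 171 CPM in MLg, against 190 and 50.2 CPM in C2C12. The difference was not called for Irf7, Irf9, Ifit1, Ifit3 or Isg15 (adjusted p = 0.393, 0.149, 0.678, 0.795 and 0.308). Mt1 and Mt2 went the other way: their log2 changes were -0.89 and -1.14 in C2C12 and 0.08 and 0.16 in MLg, and the differences of -0.95 and -1.29 were called (adjusted p = 0.0115 and 0.0351).

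**Figure D5:**
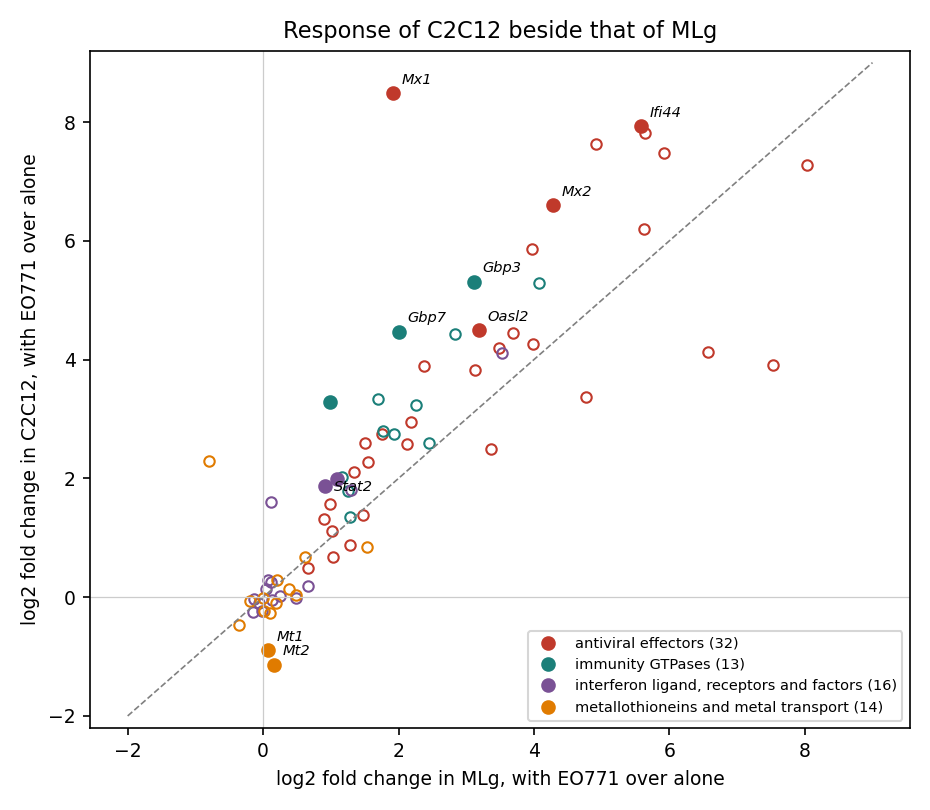
Log2 fold change in C2C12 (vertical) against that in MLg (horizontal), each with EO771 over alone, for 4 gene lists; filled points are genes whose responses differed at an adjusted p under 0.05 and the dashed line marks equal change. Most interferon genes lie above the line at positive values in both lines, and Mt1 and Mt2 lie below 0 in C2C12 and near 0 in MLg.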

How the data were processed

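RNA was sequenced as poly(A)-selected, strand-marked libraries, per the labels' protocols. The authors deposited whole-number read counts per gene, 1 file per library; the submitters' processing notes name Subread 2.0.1 with featureCounts, DESeq2, fastp and STAR 2.7.10a. Build, annotation, strand setting and the treatment of multi-mapped reads: not given in the sources used here. Symbols and coordinates were taken from GENCODE M21 (GRCm38), to which all 55536 gene IDs matched; 233 genes that share a symbol were kept apart by ID, and Aldoa, Atp5o and Ddit3 were left out of the lists because no single gene matched.

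CPM are counts per 1e6 of all counts in the library. The 8 C2C12 libraries were fitted with edgeR 4.0.16 (R 4.3.3; filterByExpr with a minimum count of 10, TMM scaling, quasi-likelihood test, Benjamini-Hochberg adjustment over all genes tested, threshold 0.05), and the 16 libraries of C2C12 and MLg with and without EO771 were fitted for the difference of responses. Counts were also simulated for the C2C12 comparison, with a fixed dispersion of 0.03 and changes in genes of at least 5 CPM. The test recovered 98 of 100 genes changed by 1 and 100 of 100 changed by 2 on the log2 scale, with 8 false calls among 16695 genes tested. The simulation held no difference between R3 and other libraries, so its recovery does not apply to genes that varied with R3. In the data the SE was 0.77 for Myh3 and 1.03 for Myh1. The EO771 share was the median, over 79 genes with at least 10 CPM in both EO771 groups and at most 0.1 CPM in C2C12 alone, of the library's CPM over the mean in EO771 with C2C12. Values within R3 and R5 are log2 ratios of mean CPM with 0.1 added.

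R3 and R5 occur in both groups. Deviations of same-numbered libraries from their group means correlated at 0.651 and 0.733 (R3) and 0.413 and 0.438 (R5). Libraries of unlike number, R3 left out, correlated at 0.158 to 0.275, and each group mean holds R3 libraries, which sets the others to 1 side. Whether R5 pairs its libraries beyond this was not tested, and the labels state no pairing. The block leaves 3 residual degrees of freedom, against 6 without it. In 5 of the 28 libraries, none of them of C2C12 as host, every count was even. They were 3 of EO771 with C2C12, the group the EO771 share is read against, and 2 of MLg with EO771. With those counts halved, the difference of responses was called for 337 genes, against 343. The genes named are the 12 largest rises and falls with at least 5 CPM in the higher group that were called, separated the groups and kept the call with any library left out, up to 5 such genes of at least 1 CPM per list in each direction, 3 far above carry-over and a panel given whatever its values, of which the text gives a part; others are marked as chosen after their values were seen. Members and lists were chosen with earlier results of these data known. Alternatives were RLE scaling, no filter, DESeq2 1.42.0, the block, no R3 libraries, all 28 libraries, subtraction of EO771 counts, and each library left out. Intervals and floors cover counting error only. Some results are not reported here.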

Additional observations from a re-analysis of the deposited data

Results flagged for a closer look

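In 3 of 80 groups of 4 libraries, over the 40 genes whose folds are given, 1 library stood apart from the rest by Dixon's criterion, and chance alone gives about 1 in 20. These were Ube2l6 at 40.3 CPM in C2C12 with EO771 R3-1, Herc6 at 1.91 CPM in C2C12 alone R5-1, and Mx1 at 0.0435 CPM in C2C12 alone R5-1, where the other libraries alone had 0 reads.

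The log2 change of C2C12 minus that of MLg was called for 14 of these genes, by the interaction test of edgeR. Most were named for a change in C2C12, which favours a larger change there. It was above 0 for Mx1 (6.58, adjusted p = 0.000133), Lilrb4a (5.67, adjusted p = 0.0112), Cxcl10 (2.80, adjusted p = 0.0392), Psmb9 (2.63, adjusted p = 0.0215), Gbp7 (2.45, adjusted p = 0.0117), Ifi44 (2.36, adjusted p = 0.011), Mx2 (2.32, adjusted p = 0.00354), Gbp3 (2.20, adjusted p = 0.00196), Oasl2 (1.32, adjusted p = 0.00207), Uba7 (1.23, adjusted p = 0.00481), Slc10a6 (1.17, adjusted p = 0.0426) and Stat2 (0.97, adjusted p = 0.0173). It was below 0 for Mt1 (-0.95, adjusted p = 0.0115) and Mt2 (-1.29, adjusted p = 0.0351). C2C12 alone held 0 reads of Lilrb4a and 3 of Mx1, so the sizes of these 2 differences are poorly fixed.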

How the results depend on the processing

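The 429 rises became 667 with DESeq2, 1082 with all 28 libraries in the fit and 119 after EO771 counts were subtracted. The 137 described rises became 208 with DESeq2, and the like count was 485 with all 28 libraries, where 19496 genes were tested. Genes that the main fit did not test were counted there without the carry-over rule. The same holds for the counts of described rises with a library left out. The 16 falls became 82 with DESeq2, 94 with all 28 libraries, 36 without the R3 libraries and 6 after EO771 counts were subtracted. Leaving out each library in turn gave 301 to 521 rises, 99 to 173 described rises, 26 to 29 antiviral effectors, 9 to 13 immunity GTPases and 278 to 474 genes with unlike responses in C2C12 and MLg. It gave 4 to 75 falls: 75 without R3-1 with EO771, 33 without R5-1 alone, 4 without R3-1 alone, 5 without R2-1 alone or R6-1 with EO771, and 6 without R3-2 alone or R5-2 with EO771; the cause was not tested. With the R number as a replicate block there were 373 rises and 11 falls, and 12 immunity GTPases and 28 antiviral effectors were higher. The 40 genes whose folds are given hold no sarcomere or atrophy gene and not Mki67. Of these 40, 31 kept their side of the threshold under every alternative run that tested them and 0 changed direction. Psmb9 and Lilr4b were not tested after EO771 counts were subtracted. The block took the call from Timp1, Sh3bp4 and Crabp2 and gave one to Il6, and changed no other call among the 40. Outside the 40, the log2 fold change went from -0.38 to 0.05 under the block in Myh3 and from 0.84 to -0.05 in Mki67. Myh3, Ckm and Trim63 were called only without the R3 libraries. The EO771 share was 4.37% to 4.53% under the other definitions. Depth limits what can be said of Ifnb1 and Mstn, which were too low to test.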
